A study of Bos taurus with 9 samples.

Results

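The transcriptome of untreated bovine cells labelled as endometrial epithelial cells was described from the 3 untreated control libraries of a series of 9. The libraries were chosen by their label alone, which gives no treatment. The study asked what DPPA3, an embryonic transcript found in vesicles shed by embryos, does in uterine cells, and these libraries show the cells without treatment. Cells were grown in a commercial bovine endometrial growth medium at 37 °C with 5% CO2, without transfection reagent and without RNA. The donor animal, its cycle stage, the passage of the cells and any hormone in the medium were not given in the sources used here. The labels do not say whether each replicate was its own culture or animal, so every SD below may be technical.

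The endometrium, the lining of the uterus, holds a luminal and glandular epithelium above a stroma of fibroblast-like cells, with vessels and immune cells between them. Epithelial cells are held together by tight junctions and desmosomes over a keratin skeleton, while stromal cells lay down fibrillar collagen over a vimentin skeleton. Estrogen and progesterone act through nuclear receptors to set what both layers secrete, and in ruminants the secretions of the glands, called histotroph, feed the embryo before it attaches.

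Replicates 1, 2 and 3 held 7258348, 9028012 and 10130619 counted reads. Levels are given as CPM, the count of a gene per 1e6 counts of a library size scaled by trimmed mean of M-values (TMM), always in the order of replicates 1, 2 and 3. A CPM is a share of reads: long transcripts collect more reads, and transcript lengths were not used here, so an order of genes by CPM is not an order by number of molecules. A gene was called detected at 1 CPM or more in each library. This held for 12897 of 30641 rows, 42.1%, the share against which the count of detected genes in each list is read. All rows include noncoding and unmatched rows. Among rows listed as protein coding the share was higher, with 11766 of 19198 detected. A list of protein-coding genes above 42.1% therefore need not exceed protein-coding rows as a whole. A list near or under 42.1% lies below the protein-coding share. A further 10796 rows had no read in any library. A count of 0 allows a level of up to 3 counts, which is 0.462, 0.312 and 0.282 CPM in the 3 libraries.

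The label was checked first against marker genes, and the markers did not point to 1 cell type. The keratins of simple epithelia were plentiful. KRT8 lay at 4776, 3881 and 4150.2 CPM, a mean of 4269 ± 459 (SD, n = 3). Its usual partner KRT18 lay at 2486, 1644 and 1563 CPM, and KRT19 at 2706, 2569.6 and 2756 CPM. All 3 keratins were far above the detection limit in every library. Reads of mesenchymal genes were plentiful in the same libraries. VIM, the vimentin intermediate filament, lay at 1649, 1458 and 1295 CPM (1467 ± 177, SD, n = 3), and COL1A1, a chain of type I collagen, lay at 18087, 10060.5 and 9572 CPM (12573 ± 4781, SD, n = 3). FOXL2, a forkhead transcription factor known from ovarian granulosa cells and from ruminant endometrium, had 56046, 34160 and 71978 counts, or 8635, 3558 and 6756 CPM (6316 ± 2567, SD, n = 3). FOXL2 stood at rank 10 of all rows by mean CPM. COL1A1 and FOXL2 varied most of the 6 markers, with replicate 1 highest for both, and KRT19 varied least. In bulk RNA, a mixture of cell types cannot be told apart from cells of 1 type that carry both sets of transcripts. Nor can fewer cells of a type be told from less RNA per cell. Lists of other cell types, the mesothelial one included, are given below. The samples are therefore called the untreated control libraries below.

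Reads were concentrated in few genes. The 473 genes of highest mean CPM held 50% of the scaled reads, and 71 genes at 1000 CPM or more held 35.1%, 28.0% and 28.4% of the counts. The 25 genes of highest mean CPM took 28.5%, 21.3% and 21.6%. The plot of cumulative share by gene shows replicate 1 above the other libraries at its left end, where a single row sets the start of the curve. That row was LOC112442408, a RefSeq locus without a gene symbol that is listed as protein coding. It held 796634, 373065 and 442088 counts, or 10.98%, 4.13% and 4.36% of each library. Counting error alone was small, with 95% Clopper-Pearson bounds of 10.95% and 10.998% in replicate 1, 4.12% and 4.15% in replicate 2, and 4.35% and 4.38% in replicate 3. Its level was 122732, 38860.1 and 41498 CPM, a mean of 67697 ± 47680.4 (SD, n = 3), and the mean was 40179 CPM without replicate 1.

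**Figure D1:**
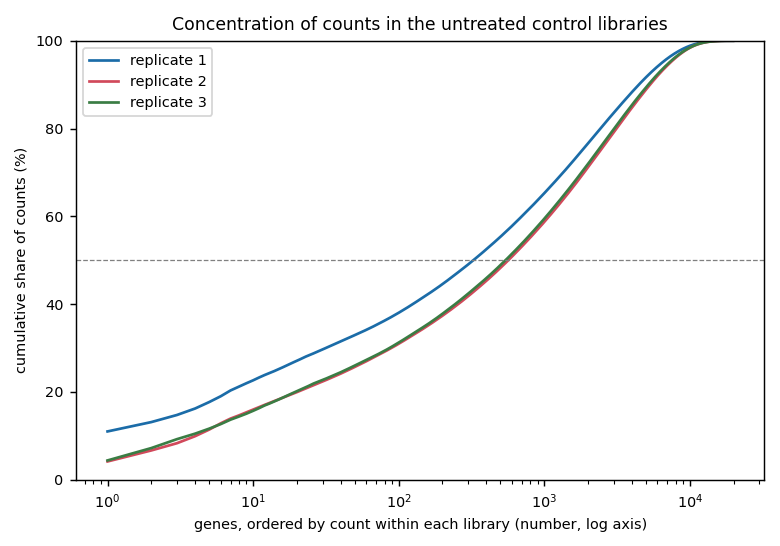
Cumulative share of counts (%, y axis) against the number of genes ordered by count within each untreated control library (log x axis), 1 line per library. The 25 genes of highest mean CPM held 28.5%, 21.3% and 21.6% of the counts in replicates 1, 2 and 3, and replicate 1 starts highest with 10.98% of its counts on 1 row.

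Of those 25 genes, 10 encode proteins of the extracellular matrix. FN1, the adhesive glycoprotein fibronectin, lay at 16534, 23642 and 26846 CPM, lowest in replicate 1. COL1A2, the second chain of type I collagen, lay at 14676, 14176 and 11967 CPM, and COL3A1, the chain of type III collagen, at 9777, 6886 and 6151 CPM. These 3 genes and COL1A1 were among the 10 rows of highest mean. SPARC, a collagen-binding matricellular protein, lay at 7375, 6576 and 5742 CPM, and COL5A1, a chain of the collagen that nucleates fibrils, at 7251, 4468 and 4200.0 CPM. HSPG2, the basement membrane proteoglycan perlecan, was at 4984, 2782 and 3414 CPM. SPARC varied by less than COL5A1 and HSPG2, and all 3 were highest in replicate 1. FBLN2, the elastic-fibre protein fibulin-2, lay at 4829.7, 2353 and 2763 CPM. LTBP2, a latent TGF-beta binding protein family member of microfibrils, lay at 3918, 3000.2 and 2971 CPM, and CCDC80, a secreted matrix protein, at 3419, 3458 and 3987 CPM. Only the CCDC80 level was highest in replicate 3 among these 3 genes.

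The rest of the 25 included FOXL2, LOC112442408 and secreted, cytoskeletal, membrane, translational and noncoding transcripts. C3, the central complement component and a known product of the endometrium, lay at 16474, 15100.3 and 19293 CPM (16956 ± 2137, SD, n = 3). IGFBP2, an insulin-like growth factor (IGF) binding protein, lay at 4395, 3102 and 4321 CPM, and SFRP2, a secreted modulator of WNT signalling, at 3624, 3089 and 3289 CPM. These 3 secreted products had coefficients of variation between 8.11% and 18.4%. AHNAK, a very large scaffold protein, lay at 5174, 5343 and 6226 CPM, and ACTB, cytoplasmic actin, at 6264, 4251 and 4379 CPM. LRP1, an endocytic receptor, lay at 3674, 2318 and 2915 CPM, and PODXL, a sialomucin of apical membranes, at 2737, 2418 and 2650.2 CPM. The translation factors EEF1A1 and EEF2 were at 4604, 6092 and 5869.9 and at 3537, 3002 and 3019 CPM. KRT8 and KRT19 complete the protein-coding set. The noncoding members were RN7SL1, the RNA of the signal recognition particle, with 2.13%, 1.65% and 1.14% of counts, and RN18S1, the RNA of the small ribosomal subunit, with 1.32%, 1.43% and 1.04%. Both noncoding shares were lowest in replicate 3.

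Epithelial traits were present in part. Of 46 epithelial genes, 30 (65.2%) were detected, against the 42.1% of all rows, and the median of the 46 means was 9.37 CPM, against 0.51 over all rows. Of 19198 protein-coding rows, 11766 were detected, a share closer to that of the list. The 4 simple keratins were all detected, with KRT7 at 549, 444 and 492 CPM. Of 20 genes of cell-cell junctions, 15 (75%) were detected. CGN, the tight-junction plaque protein cingulin, lay at 1059.5, 942 and 975 CPM. TJP1, the scaffold ZO-1 of tight junctions, lay at 668, 563 and 574 CPM, and the claudin CLDN1 at 344, 451 and 431 CPM. Each of these 3 tight-junction genes was above 300 CPM in every library. Desmosomal genes followed, with JUP (plakoglobin) at 304, 189 and 266, PKP2 (a plakophilin) at 100.3, 72.9 and 84.2 and DSP (desmoplakin) at 54.1, 30.4 and 38.4 CPM. CDH1, the E-cadherin of epithelial adherens junctions, lay at 43.1, 48.3 and 51.1 CPM (47.5 ± 4.03, SD, n = 3), and OCLN, the tight-junction membrane protein occludin, at 7.55, 10.1 and 12 CPM. CDH1 and OCLN were detected in every library.

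Other defining epithelial genes were at or near 0. EPCAM, the surface adhesion molecule used to sort epithelial cells, lay at 0.616, 0.521 and 0.751 CPM, below the detection limit in every library. CLDN3, CLDN4 and CLDN7, claudins of many glandular epithelia, were not detected either, at 0.77, 0 and 0.751, at 1.85, 0.208 and 0.845 and at 0, 0 and 0.282 CPM. GRHL2, OVOL1 and OVOL2, transcription factors that maintain epithelial identity, had no read in any library. ESRP1, an epithelial splicing regulator, had 1, 0 and 0 counts, while its relative ESRP2 lay at 11.7, 10.2 and 12.1 CPM. Of 8 epithelial regulators, 3 (37.5%) were detected, namely ESRP2, ELF3 (5.24, 2.5 and 2.16 CPM) and GRHL1 (1.23, 2.29 and 1.88 CPM). MUC1, the cell-surface mucin of the uterine lumen, lay at 3.7, 2.08 and 1.69 CPM. Basal or stratified epithelial genes were detected for 2 of 8 (25%, against 42.1% of all rows), namely KRT17 and KRT15. TP63, the basal-cell regulator, had 0, 0 and 1 counts. Genes of ciliated cells were detected for 3 of 7 (42.9%), against 42.1% of all rows and a higher share of protein-coding rows. TPPP3 lay at 12.5, 15.3 and 17.8 CPM, while FOXJ1, the factor that defines the ciliated state, had 0, 0 and 1 counts.

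Most of the stromal list was detected, with 28 members also at 5 CPM or more in every library. Of 36 stromal genes, 33 (91.7%) were detected, against 42.1% of all rows, and the median of the 36 means was 72.1 CPM. The 8 collagen chains and the 10 matrix proteins of the list were all detected. COL6A1, a chain of microfibrillar collagen VI, lay at 2158, 1467 and 1549 CPM, while COL6A3, a partner chain, lay at 6.62, 3.44 and 8.35 CPM. CDH11, the cadherin of fibroblasts, lay at 697, 631 and 591 CPM, and CDH2, N-cadherin, at 54.8, 44 and 40.6 CPM. LOX, the enzyme that cross-links collagen, lay at 531, 591 and 388 CPM. CDH11 and LOX stayed above 300 CPM in each library. POSTN, the matricellular protein periostin, was uneven at 147, 613 and 422 CPM, and DCN, the small proteoglycan decorin, at 85.4, 234 and 119.6 CPM. Both were lowest in replicate 1 and highest in replicate 2. PDGFRA, a receptor of stromal fibroblasts, lay at 25.7, 26.5 and 35.6 CPM. Of 8 mesenchymal regulators, 7 (87.5%) were detected, among them ZEB1 at 28.7, 30.3 and 34.1 CPM and PRRX1 at 24.8, 28.9 and 38.5 CPM. The 3 stromal genes not detected were THY1 (1.23, 0.729 and 0.939 CPM), a fibroblast surface antigen, TCF21, a fibroblast transcription factor with 0, 2 and 1 counts, and MME, a surface peptidase of endometrial stroma, with 0, 2 and 0 counts.

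Summed over their lists, stromal genes drew 82942, 73903 and 71886 CPM and epithelial genes 13852, 11673 and 12150 CPM. The ratio of the sums was 5.99, 6.33 and 5.92, a mean of 6.08 ± 0.22 (SD, n = 3). It is a ratio of reads and depends on a few very abundant members. Without VIM and the collagens on the stromal side it was 2.56, and without the keratins on the epithelial side it was 23.7.

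**Figure D2:**
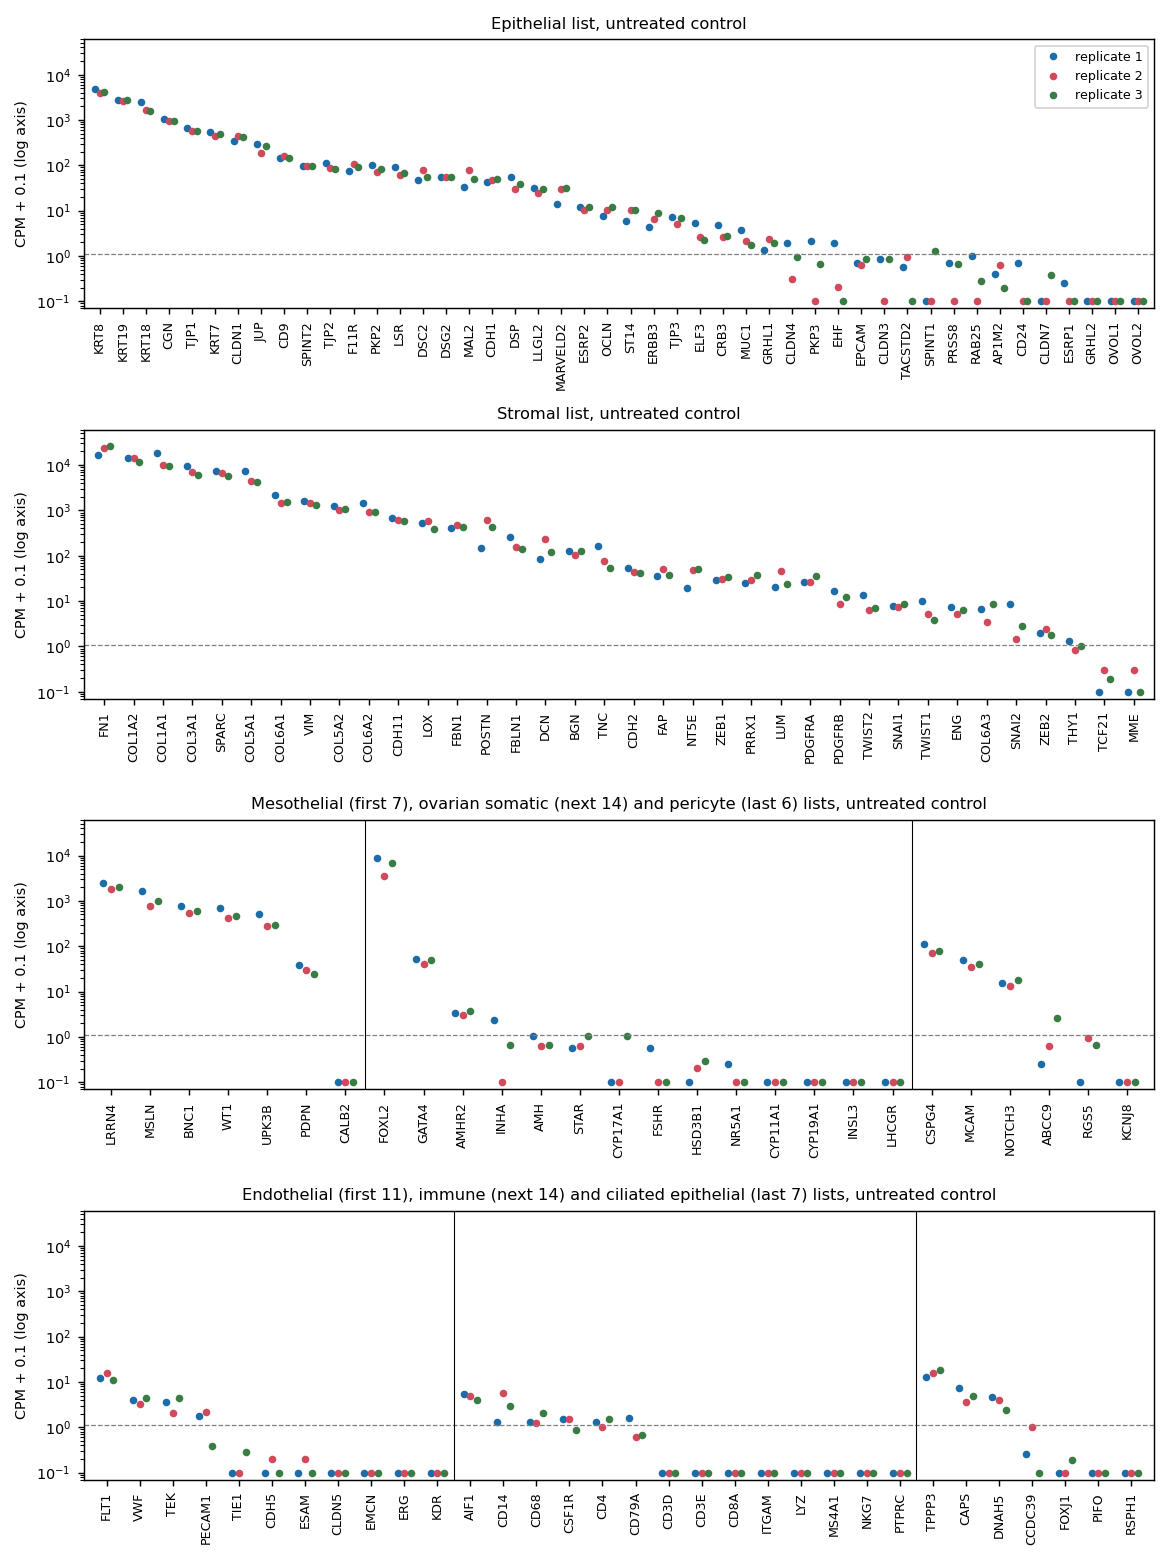
Level of each marker gene (CPM + 0.1, log y axis) in the 3 untreated control libraries, 1 point per library and gene, with genes ordered by mean within each list and a dashed line at the detection limit of 1 CPM. KRT8, KRT19 and KRT18 and the collagens COL1A1, COL1A2 and COL3A1 stand above 1000 CPM, whereas EPCAM, GRHL2, OVOL1 and OVOL2 in the epithelial list and most of the endothelial and immune lists lie below the line.

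Contractile genes, which smooth muscle and myofibroblasts share, were detected for 11 of 12 (91.7%, against 42.1% of all rows). TPM1, a tropomyosin found in many cells, lay at 956, 995 and 917 CPM, TAGLN, an actin-binding protein, at 692, 502 and 371 CPM and ACTA2, smooth muscle actin, at 649, 455 and 340.5 CPM. Of the 11, 9 were highest in replicate 1, against 5270 of 12897 over all detected genes. DES, desmin, lay at 76.1, 28.9 and 36.7 CPM, whereas MYH11, the smooth muscle myosin heavy chain, lay at 1.85, 1.46 and 1.6 CPM and MYOCD, the smooth muscle regulator myocardin, was not detected (2.0, 0.312 and 1.5 CPM). Of 6 pericyte genes, 3 were detected (50%, against 42.1% of all rows and a higher share of protein-coding rows). CSPG4 led them at 112, 69.7 and 77.3 CPM. KCNJ8 had no read, and RGS5 lay at 0, 0.833 and 0.563 CPM.

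Markers of vessels, blood and the conceptus were mostly missing. Of 11 endothelial genes, 3 (27.3%) were detected, against 42.1% of all rows. These were FLT1 at 12.3, 15.3 and 10.8, VWF at 3.85, 3.23 and 4.22 and TEK at 3.54, 1.98 and 4.22 CPM. KDR, CLDN5, ERG and EMCN had no read in any library. Of 14 immune genes, 3 (21.4%) were detected, against 42.1% of all rows. These were AIF1, CD14 and CD68, with means of 4.62, 3.19 and 1.45 CPM. Of the 14, 8 had no read, among them the pan-leukocyte gene PTPRC and the T-cell genes CD3D and CD3E. Summed, the endothelial list drew 21.4, 22.8 and 19.7 CPM and the immune list 11.9, 14.3 and 11.5 CPM. Of 11 trophoblast genes in the table, PAG1 alone was detected (9.1%, against 42.1% of all rows), at 8.32, 7.6 and 8.17 CPM. That symbol also names a widely expressed membrane adaptor, so the row may not be the placental glycoprotein, and the other 10 trophoblast genes, CDX2 and ELF5 included, lay below the detection limit.

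Most genes of the mesothelial list were abundant, and of the ovarian genes few besides FOXL2 were detected. Like the other lists, both were chosen with earlier results of these data known, so their shares are description only. Of 7 genes known from mesothelium, the lining of the body cavity and of abdominal organs, 6 were detected (85.7%, against 42.1% of all rows). Their median mean was 528 CPM over the 7 genes. LRRN4, a leucine-rich repeat membrane protein, lay at 2444, 1861 and 2034 CPM. MSLN, the surface protein mesothelin, lay at 1614, 760.2 and 989.7 CPM, and UPK3B, a uroplakin, at 520.4, 273 and 289 CPM. BNC1, a zinc finger factor also known from other epithelia, lay at 774, 551 and 595 CPM, and WT1, a zinc finger factor also known from uterine stroma, at 698, 426 and 462 CPM. PDPN, podoplanin, lay at 37.9, 30.4 and 24.6 CPM, and CALB2, calretinin, had no read. The 5 most abundant of these genes were all highest in replicate 1, as were 5270 of all 12897 detected genes. Of 14 genes of ovarian somatic cells, 3 were detected (21.4%, against 42.1% of all rows), namely FOXL2, GATA4 (52.1, 39.8 and 48.8 CPM) and AMHR2 (3.24, 2.92 and 3.57 CPM). The steroidogenic enzymes CYP19A1 and CYP11A1, the luteinizing hormone receptor LHCGR and the hormone INSL3 had no read, and FSHR, the follicle-stimulating hormone receptor, had 3, 0 and 0 counts. Other steroid-making genes were below the detection limit, STAR with 3, 5 and 10, CYP17A1 with 0, 0 and 10 and HSD3B1 with 0, 1 and 2 counts.

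Transcription factors known from the uterus were detected for 29 of 36 (80.6%, against 42.1% of all rows), with a median mean of 44.02 CPM. FOXL2 led the list in read share. Of the other forkhead factors, FOXO1, a decidualisation factor, lay at 163, 104 and 98.9 CPM, FOXP1 at 82.1, 83.7 and 83.7 CPM, FOXC1 at 13.1, 16.4 and 15.8 CPM, FOXA1 at 17.6, 9.48 and 17.6 CPM and the proliferation factor FOXM1 at 11.4, 6.87 and 11.6 CPM. FOXA2, the factor that marks and builds uterine glands, had no read in any library, and FOXC2 was not detected. FOXP1 was nearly level across the libraries, and FOXO1 was highest in replicate 1.

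Factors tied to uterine stroma and to the ducts of the embryonic genital tract were read as well. NR2F2, the orphan nuclear receptor of uterine stroma, lay at 1076, 428 and 449 CPM, and its relative NR2F1 at 127, 60.5 and 84.6 CPM. GATA6 lay at 417, 225 and 233 CPM, and GATA2, a partner of progesterone receptor in the uterus, at 129, 71.6 and 104 CPM. Replicate 1 was highest for all 4 of these genes. HAND2, a progesterone-induced stromal factor, lay at 21, 10.6 and 14.3 CPM, and EMX2, a homeobox factor needed for the genital tract, at 47, 34.3 and 36.8 CPM. PAX8, a marker of cells derived from the Müllerian duct, lay at 16.3, 5.94 and 5.82 CPM. SOX17, a factor of gland development, was not detected at 0.154, 0.833 and 0 CPM, nor was PAX2 (1.08, 1.25 and 0 CPM), and LHX1 had no read. PAX8 and SOX9, an epithelial gland factor (22.8, 3.54 and 5.16 CPM), were both more than 2-fold higher in replicate 1 than in the other 2 libraries.

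Among signal-dependent and homeobox factors, STAT3, which relays leukaemia inhibitory factor, was even at 245, 239 and 262 CPM. CEBPB, a decidualisation factor, lay at 337, 161 and 168 CPM. KLF9, a partner of progesterone receptor, lay at 91.8, 44.5 and 48.2 CPM, and KLF5, an epithelial Krüppel-like factor, at 71.2, 47.5 and 46.7 CPM. CEBPB, KLF9 and KLF5 were all highest in replicate 1. MSX1, a homeobox factor of uterine receptivity, lay at 47.5, 37.5 and 61.1 CPM and MSX2 at 1.69, 3.02 and 3.66 CPM. The HOX cofactors MEIS1 and MEIS2 lay at 85.7, 79.1 and 97 and at 127, 106 and 114 CPM. Of other detected members, SOX4, TBX3, KLF4 and TBX2 had means of 166, 119.6, 4.92 and 2.01 CPM. Of the 29 detected factors, 20 were highest in replicate 1 and 20 were lowest in replicate 2, while over all detected genes replicate 1 was highest for 5270 and replicate 2 lowest for 4796 of 12897.

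HOX genes, whose order along a chromosome cluster follows the head-to-tail axis of the body, were detected for 28 of 39 (71.8%, against 42.1% of all rows). Of 27 genes with numbers 1 to 9, 24 (88.9%) were detected. Of 12 with numbers 10 to 13, 4 (33.3%) were detected, against the same 42.1% of all rows. HOXB8 lay at 481, 248 and 289.7 CPM, HOXB6 at 310.3, 247 and 317 CPM, HOXC6 at 237, 234 and 264 CPM and HOXA6 at 162, 135 and 155 CPM. These middle genes of 3 clusters had the largest read shares of the family. HOXA10 and HOXA11, which pattern the uterus and are needed for implantation, lay at 10.8, 11.6 and 8.07 and at 4.01, 3.02 and 4.88 CPM. HOXA13, a gene of the lower genital tract, was not detected at 0, 0.833 and 0.282 CPM. By cluster, 9 of 11 HOXA (81.8%), 8 of 10 HOXB (80%), 6 of 9 HOXC (66.7%) and 5 of 9 HOXD (55.6%) genes were detected. Neighbouring HOX genes can overlap, and the labels do not state strand, so reads of overlapping or antisense transcripts cannot be told apart.

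**Figure D3:**
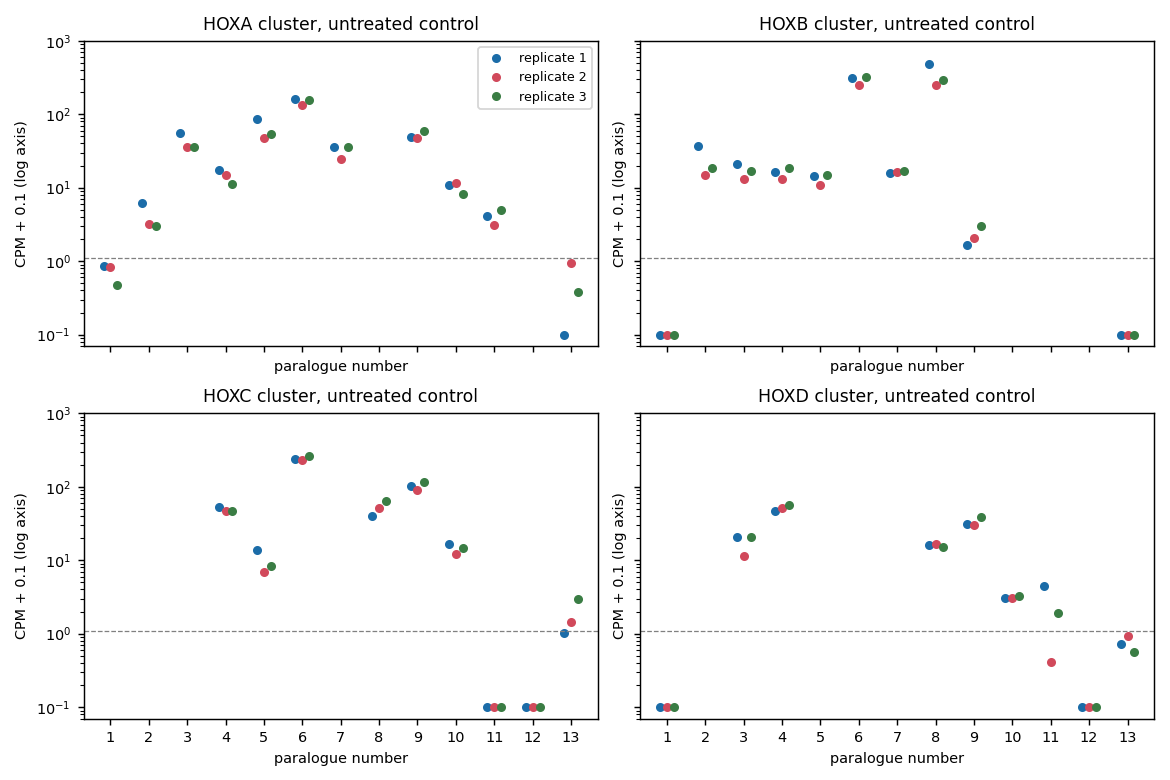
Level of each HOX gene in the table (CPM + 0.1, log y axis) by its number within clusters A to D (x axis), 1 point per untreated control library, with a dashed line at 1 CPM. The highest points belong to HOXB8 and HOXB6. Of the 12 genes numbered 10 to 13, 4 (33.3%, against 42.1% of all rows) lie above the line in all 3 libraries.

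Hormone and growth factor receptors were detected for 42 of 55 (76.4%, against 42.1% of all rows), with a median mean of 33.6 CPM. Nuclear and steroid receptors were detected for 14 of 17 (82.4%). ESR1, estrogen receptor alpha, lay at 92.3, 93.9 and 127 CPM (104 ± 19.4, SD, n = 3), while ESR2, estrogen receptor beta, had 0, 0 and 2 counts. PGR, the progesterone receptor, lay at 28.5, 10.8 and 12 CPM (17.1 ± 9.88, SD, n = 3). ESR1 was highest in replicate 3, and PGR was more than 2-fold higher in replicate 1 than in either other library. NR3C1, the glucocorticoid receptor, lay at 65.9, 132 and 104 CPM. The membrane-associated progesterone-binding proteins PGRMC1 and PGRMC2 lay at 42.5, 56.2 and 41.5 and at 49.5, 77.4 and 66.6 CPM, and the membrane estrogen receptor GPER1 at 11.4, 6.98 and 10 CPM. All of these were detected, while the mineralocorticoid receptor NR3C2 (2.0, 0.104 and 0.845 CPM) and the thyroid hormone receptor THRB (2, 2 and 0 counts) were not. The retinoic acid receptors RARA, RARB and RARG had means of 146, 18 and 41.6 CPM, and their partners RXRA and RXRB of 49.7 and 68.8 CPM. The thyroid hormone receptor THRA and the vitamin D receptor VDR had means of 135 and 21.7 CPM.

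Of 17 receptors for peptide hormones and prostaglandins, 8 (47.1%) were detected, against 42.1% of all rows. That share was below the 11766 of 19198 protein-coding rows. The prostaglandin E2 receptors PTGER4, PTGER3 and PTGER1 lay at 39.4, 21.7 and 20.3, at 15.6, 21.5 and 20.1 and at 4.78, 1.15 and 2.91 CPM, and PTGER2 had no read. PTGDR, the prostaglandin D2 receptor, lay at 21.4, 20.3 and 18.6 CPM, PTGIR, the prostacyclin receptor, at 14.6, 9.06 and 8.73 CPM and PTGFR, the prostaglandin F receptor, at 1.54, 2.4 and 2.63 CPM. Receptors for 4 prostaglandins were therefore read in each library. The adiponectin receptors ADIPOR1 and ADIPOR2 had means of 86.3 and 65.4 CPM. OXTR, the oxytocin receptor that triggers luteolytic prostaglandin release in the cyclic cow, was not detected as defined here, at 1.54, 0.312 and 0.469 CPM. PRLR and GHR, the prolactin and growth hormone receptors, had 0, 0 and 1 and 0, 1 and 4 counts, and LHCGR, AVPR1A and RXFP1 had none.

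Growth factor and cytokine receptors were detected for 20 of 21 (95.2%, against 42.1% of all rows), and KIT alone was missing, with 0, 2 and 0 counts. IL6ST, the chain shared by receptors for the leukaemia inhibitory factor family, was uneven at 392, 1289.9 and 910.4 CPM. Its partner LIFR lay at 23.3, 40.1 and 32.1 CPM, and IL11RA and IL6R had means of 200.2 and 8.0 CPM. IL6ST and LIFR were both lowest in replicate 1 and highest in replicate 2. The IGF receptors IGF1R and IGF2R lay at 348, 251 and 284 and at 682, 488 and 549 CPM, and the insulin receptor INSR had a mean of 38.8 CPM. EGFR and ERBB2, receptors of the epidermal growth factor family, had means of 79.1 and 190.5 CPM, and MET, the hepatocyte growth factor receptor, of 201 CPM. FGFR1 and FGFR2 had means of 290.2 and 50.1 CPM. For the TGF-beta superfamily, the means were 40.2 CPM for TGFBR1, 202 for TGFBR2, 41.9 for BMPR1A, 192 for BMPR2, 54.4 for ACVR1 and 23.7 for ACVR2A. IFNAR1 and IFNAR2, the receptor chains for type I interferons including the interferon tau by which the ruminant conceptus signals, lay at 19.6, 49.2 and 41.2 and at 22.2, 26.4 and 26.2 CPM.

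**Figure D4:**
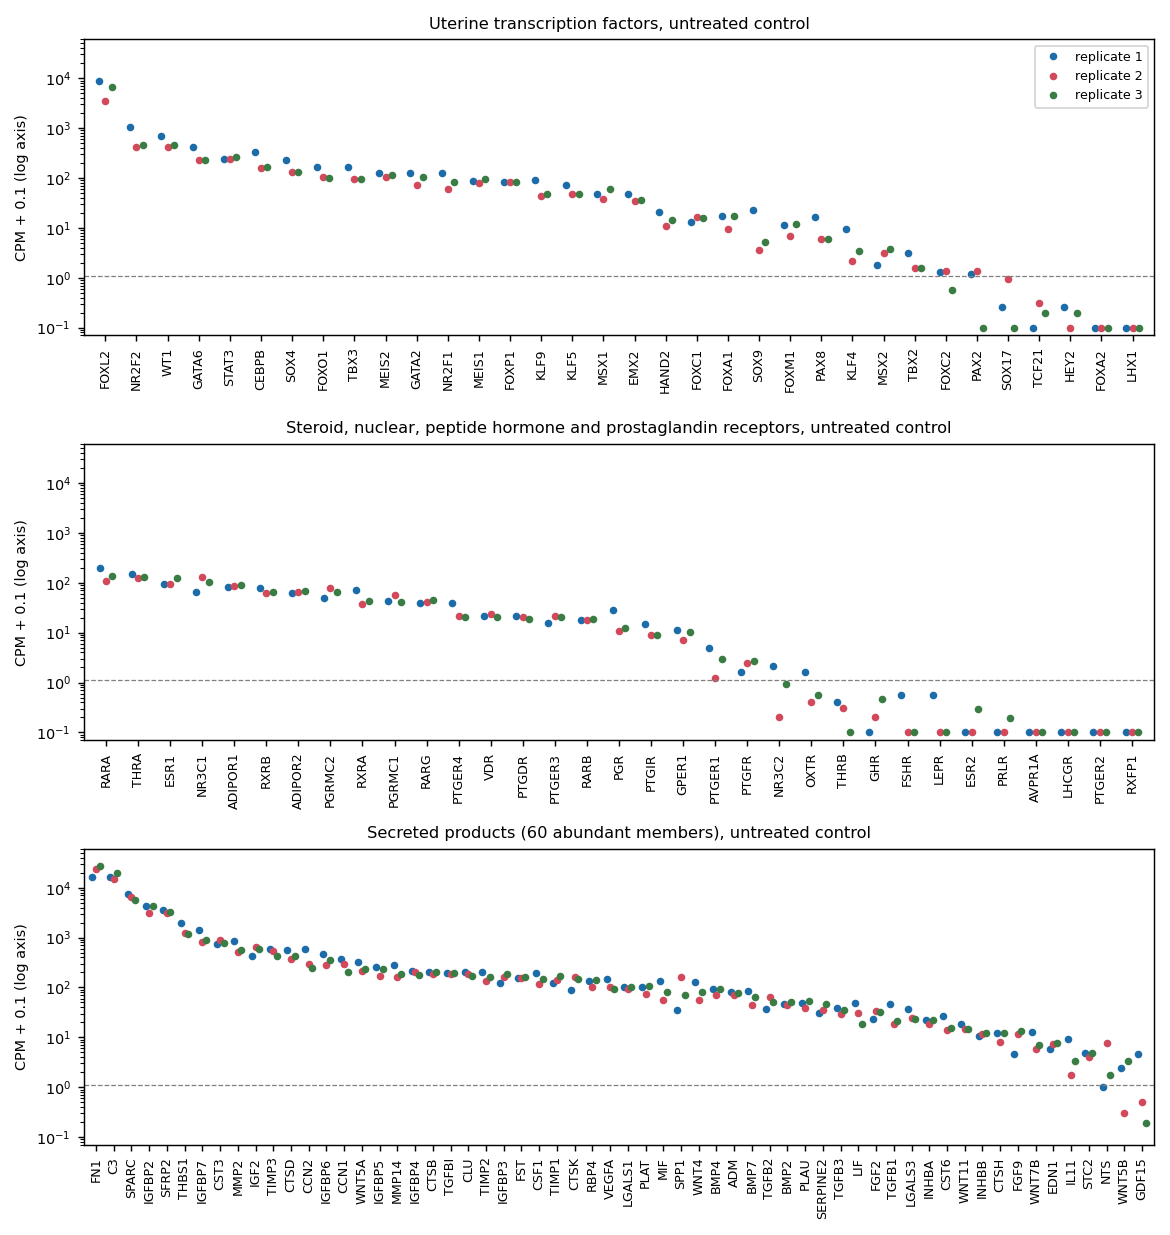
Level of members of the lists of uterine transcription factors (top), of steroid, nuclear, peptide hormone and prostaglandin receptors (middle) and of 60 abundant secreted products (bottom), as CPM + 0.1 on a log y axis, 1 point per untreated control library, with a dashed line at 1 CPM. FOXL2 stands alone above 3000 CPM in the top panel, and OXTR, ESR2, PRLR and LHCGR fall below the line in at least 2 libraries in the middle panel.

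Secreted products were detected for 58 of 92 (63.0%, against 42.1% of all rows), with a median mean of 29.2 CPM. That share was close to the 11766 of 19198 protein-coding rows. Of the 92, 15 had no read in any library. Known ruminant histotroph products were detected for 6 of 16 (37.5%, against 42.1% of all rows and a higher share of protein-coding rows). Besides C3, these were CST3, a cysteine protease inhibitor, at 728, 914 and 774 CPM, CLU, the chaperone clusterin, at 202, 187 and 171 CPM, RBP4, the retinol carrier, at 137, 103 and 139 CPM, SPP1, the integrin ligand osteopontin, at 35.9, 164 and 69.6 CPM, and CST6 with a mean of 18.7 CPM. SPP1 varied most of these, with replicate 2 more than 2-fold above both other libraries. SERPINA14, the uterine milk serpin, and GRP, LTF, SLPI, S100A9 and NPPC had no read.

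The IGF axis was detected for 7 of 9 (77.8%, against 42.1% of all rows). IGF2, the fetal-type growth factor, lay at 433, 642 and 601 CPM, while IGF1 had 1, 1 and 1 counts. The binding proteins IGFBP7, IGFBP6, IGFBP5, IGFBP4 and IGFBP3 had means of 1044, 371, 221, 199 and 158 CPM, and IGFBP1, a receptivity marker of the ruminant uterine lumen, had no read. Matricellular and secreted adhesive proteins were detected for 6 of 7 (85.7%), with THBS1, thrombospondin, at 1960.5, 1240.3 and 1161 CPM. The Hippo pathway targets CCN2 and CCN1, listed under their former symbols CTGF and CYR61, lay at 581, 297 and 243 and at 377, 295 and 201 CPM. THBS1, CCN2 and CCN1 were all highest in replicate 1.

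Proteases and their inhibitors were detected for 9 of 12 (75%, against 42.1% of all rows). MMP2, a gelatinase of stroma, lay at 843, 515 and 567 CPM, its activator MMP14 at 285, 161 and 182 CPM, and the inhibitors TIMP3, TIMP2 and TIMP1 had means of 517, 168 and 146 CPM. Both MMP2 and MMP14 were highest in replicate 1. MMP1, MMP3 and MMP9 had no read. Of 8 galectins and cathepsins, 6 (75%) were detected. CTSD lay at 569, 377 and 432 CPM and LGALS1 at 100.5, 93.4 and 102 CPM, and LGALS9 had no read.

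Growth factors and cytokines were detected for 19 of 30 (63.3%, against 42.1% of all rows), a share close to that of protein-coding rows. FST, the activin antagonist follistatin, was even at 156, 151 and 162 CPM. CSF1, the macrophage growth factor, lay at 193, 117 and 145 CPM, and VEGFA, the vascular growth factor, at 145, 103 and 94.1 CPM. BMP4, BMP7 and BMP2 had means of 86.6, 64.6 and 47.6 CPM, and LIF, leukaemia inhibitory factor, lay at 48.1, 31.1 and 18.2 CPM. The inflammatory cytokines IL6 and CXCL8 were not detected, at 0.308, 0.729 and 0.751 and at 1.08, 0.417 and 0.751 CPM, and CCL2 and CSF2 had no read. Of 10 WNT ligands and antagonists, 5 (50%) were detected, against 42.1% of all rows and a higher share of protein-coding rows. WNT5A, a non-canonical ligand of uterine mesenchyme, lay at 319.5, 214 and 229 CPM and WNT4, a decidualisation ligand, at 129.6, 55.5 and 81.7 CPM, while WNT7A, the ligand of the luminal uterine epithelium, had 0, 3 and 0 counts and DKK1 none.

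Prostaglandin synthesis genes were detected for 9 of 14 (64.3%, against 42.1% of all rows), a share close to that of protein-coding rows. PTGIS, prostacyclin synthase, lay at 373, 199 and 210.1 CPM, and AKR1B1, the main prostaglandin F synthase of bovine endometrium, at 28.2, 51.7 and 52.2 CPM. PTGES, the inducible prostaglandin E synthase, lay at 4.47, 10.8 and 7.79 CPM, and PTGDS, prostaglandin D synthase, at 61.2, 18.9 and 22.7 CPM. PLA2G4A, the phospholipase that frees arachidonic acid, lay at 10.8, 32.2 and 16.3 CPM. The cyclooxygenases, which make the precursor used by the synthases, drew few reads. PTGS1 lay at 2.77, 2.4 and 3.0 CPM, and PTGS2 was not detected as defined here, at 0.77, 2.71 and 0.469 CPM. Cell cycle genes were detected for 20 of 21 (95.2%, against 42.1% of all rows). MKI67, a proliferation marker, lay at 211, 135 and 218 CPM, CCND1, cyclin D1, at 202, 156 and 171 CPM and the inhibitor CDKN1A at 145, 99.6 and 86.3 CPM, while TERT, telomerase reverse transcriptase, had 1, 0 and 0 counts.

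The 3 libraries agreed in rank order, and replicates 2 and 3 were closer to each other than to replicate 1. Across the 12897 detected genes, which are not independent replicates, Spearman's rho of log2(CPM + 1) was 0.917 between replicates 1 and 2, 0.95 between 1 and 3 and 0.974 between 2 and 3. The share of genes within 1.5-fold was 49.9%, 63.4% and 81.3% for the same pairs. A chi-square statistic was taken per pair on library totals without TMM factors, over every row with at least 10 counts in the pair. Rows of large share, such as LOC112442408, therefore weigh in it. Each pair differed by more than counting noise: the chi-square statistic over its degrees of freedom was 63.0, 49.5 and 13.8. That bears only on whether 1 library was deposited again under another name, and not on whether the cultures were separate. The median coefficient of variation was 24.9%, and the common biological coefficient of variation in edgeR was 0.296 over 12852 genes. Without replicate 1 they were 14.1% and 0.192. The median coefficient of variation fell with level, from 39.1% for genes at a mean of 1 to 10 CPM to 23.0% at 10 to 100, 18.7% at 100 to 1000 and 16.9% above.

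Single genes showed where replicate 1 stood apart. Of 9035 detected genes with a mean of at least 10 CPM, 142 were more than 2-fold above both other libraries in replicate 1 and 451 more than 2-fold below. The corresponding counts were 70 and 24 for replicate 2 and 4 and 1 for replicate 3. Messenger RNAs of the mitochondrial genome took 0.172% of counts in replicate 1, against 0.459% and 0.411%. COX1, a subunit of cytochrome oxidase, was at 848, 2382 and 1902 CPM (row KEH36_p11). Of 13 mitochondrial messengers, the 11 with a mean of at least 10 CPM were all lowest in replicate 1, with a median log2 ratio of -1.15 to the other libraries. The collagens with a mean of at least 10 CPM moved the other way, with 19 of 22 highest in replicate 1 and a median log2 ratio of 0.53. Over all 12897 detected genes, those with a mean under 10 CPM included, replicate 1 was highest for 5270 and lowest for 5562. The ratio of COL1A1 to COL1A2, the chains of 1 collagen, was 1.23, 0.71 and 0.80. The part of these shifts in the other differences of replicate 1 was not tested.

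**Figure D5:**
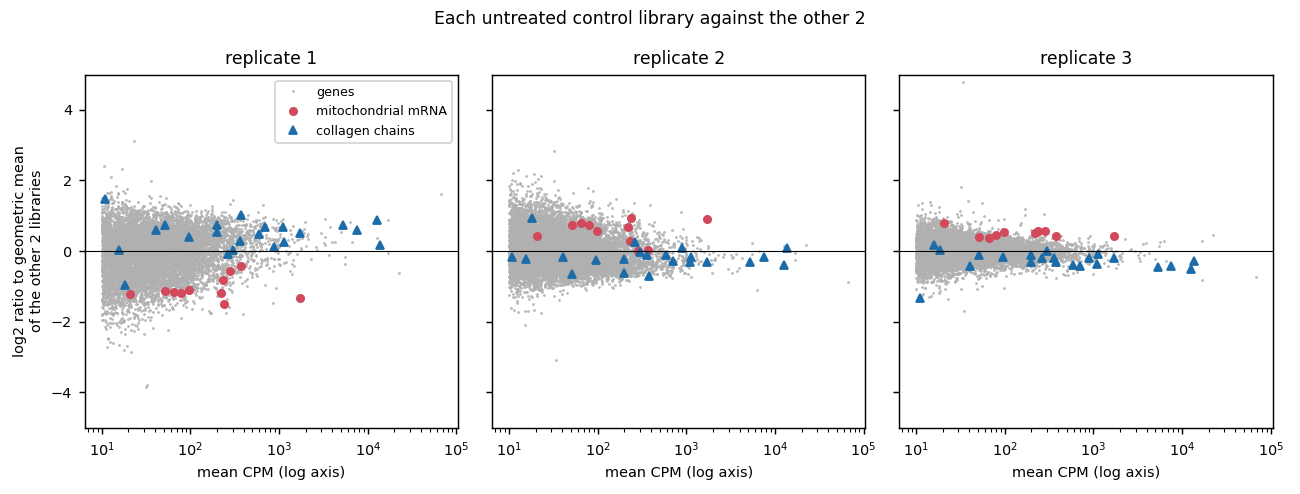
Log2 ratio of each library to the geometric mean of the other 2 (y axis) against mean CPM (log x axis) for the 9035 detected genes with a mean of at least 10 CPM, 1 grey point per gene, with mitochondrial messengers as red circles and collagen chains as blue triangles. In replicate 1 all 11 mitochondrial points lie below 0 and 19 of 22 collagen genes exceed both other libraries, and the cloud is narrowest in replicate 3.

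The 10 detected genes with a mean of at least 20 CPM and the largest spread were mostly low in replicate 1. Of these, 8 were lowest in replicate 1 and highest in replicate 2. MYRIP, a linker of melanosome-type vesicles to myosin, lay at 2.93, 64.7 and 27.9 CPM, RARRES1, a retinoid-responsive gene, at 3.39, 48.6 and 45.3 CPM and IL18, an inflammasome cytokine, at 4.01, 38.3 and 21.9 CPM. SYPL1, PSMA3, YIPF6, SCFD1 and CLK1 ranged from 5.62-fold to 7.56-fold between their lowest and highest library. LOC101902724 was high in replicate 3 alone, at 4.78, 2.5 and 95.3 CPM, and the microRNA row MIR2374 in replicate 1 alone, at 55.9, 5.83 and 7.04 CPM. S1PR4, a sphingosine phosphate receptor of blood cells that was picked after its values were seen, had 1963, 1 and 2 counts, so that its mean of 101 CPM came from replicate 1 alone.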

How the data were processed

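RNA sequencing reads of the 3 untreated control libraries were analysed from the table of raw read counts per gene that the authors deposited. Per the labels, the xGen kit of IDT was used on TRIzol-extracted, DNase-treated total RNA. Trimmomatic, HISAT2, HTSeq and edgeR are named in the submitters' processing notes. What each tool did, its version, the build and any use of strand were not given in the sources used here. Of 30641 rows, 24876 (81.2%) matched a RefSeq gene table (assembly ARS-UCD2.0), used for names and gene types. Mitochondrial genes were found by locus tag.

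CPM was computed with TMM factors over the 3 libraries and the dispersion with an intercept-only model (edgeR 4.0.16, R 4.3.3). The scripts were tested on simulated data. No groups were compared and no p-value was computed. Members and the 16 gene lists were chosen with earlier results of these data known. Some genes, such as FN1 and FOXL2, stand in more than 1 list. Named were the 6 markers, the 25 genes of highest mean, the 10 most variable of at least 20 CPM, of each list up to 6 members of highest level with those at or under 3 counts, transcription factors and receptors with a mean of 1 CPM or more, and HOX genes. A few list members are counted but not reported by name here. Other list members were named after their values were seen, for their known roles. Alternatives were DESeq2 1.42.0 size factors, other scalings, thinning, other detection limits, shorter lists and leaving out each library.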

Additional observations from a re-analysis of the deposited data

How the results depend on the processing

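Of 65 alternative values of the 6 summary results, 58 stayed within the limits set for them and 7 did not. Leaving out each library in turn gave a median coefficient of variation of 14.1% to 28.1%, a lowest Spearman rho of 0.919 to 0.975 and a biological coefficient of variation of 0.192 to 0.375, against 24.9%, 0.917 and 0.296. The lowest spread and the highest rho came without replicate 1. With 2 libraries left, these values describe a single pair. A limit of 5 CPM in every library gave a lowest rho of 0.876. The ratio of stromal to epithelial reads was 2.56 with VIM and the collagens left out and 23.7 with the keratins left out. The number of detected genes ran from 9850 (5 CPM) to 15234 (1 CPM in at least 1 library), and that holding 50% of reads from 425 to 606. Of 54 alternative marker means, 4 moved by more than 1 SD, all of KRT19 (2572 to 2865 CPM). Of 176 alternative counts of list members, 5 moved by more than 1.5-fold, at a limit of 5 CPM for the basal, ciliated, endothelial and immune lists (0, 1, 1 and 0 detected) and at 0.5 CPM for the immune list (6). Leaving out LOC112442408 was added after the data were seen. The ratio per kilobase was not run, since no transcript lengths were used. No paired analysis was possible because no groups were compared. Depth limits single genes under about 1 CPM, where a level rests on about 10 counts or fewer.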

Other observations

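Gene families outside the lists were chosen after their values were seen and are given as values. Complement genes were detected for 17 of 26 (65.4%, against 42.1% of all rows), a share close to that of protein-coding rows. Besides C3, CFB, the factor B of the alternative pathway, lay at 2033, 2159 and 2639 CPM in replicates 1, 2 and 3, C2 at 415, 358 and 475 CPM, C1S at 208, 287 and 324 CPM, C1R at 202, 189.7 and 235 CPM and C4A at 286, 167 and 262 CPM. The regulators CD46 and CD55 had means of 198 and 164 CPM, and C5, which starts the terminal pathway, lay at 0, 0.208 and 0.282 CPM. C8G, a chain of a terminal component, was detected at 21.3, 10.2 and 11.8 CPM, and CFD, the protease that activates factor B, was not, at 4.47, 0.833 and 3.85 CPM.

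Basement membrane and adhesion genes were also read. Laminin chains were detected for 9 of 11 (81.8%, against 42.1% of all rows). They were led by LAMA5 (1346, 829 and 921 CPM), LAMB1 (898, 1103 and 991 CPM) and LAMC1 (521, 567 and 559.8 CPM). The type IV collagen chains COL4A1 and COL4A2 had means of 594 and 703 CPM. Integrin chains were detected for 17 of 27 (63.0%), a share close to that of protein-coding rows. ITGA3, ITGB1, ITGAV and ITGA6 had means of 399.6, 351, 265 and 232 CPM. ITGB4, the hemidesmosome chain of epithelia, lay at 53, 29.4 and 41 CPM. Mucins were detected for 4 of 12 (33.3%), and none had a mean above that of MUC16, 3.7, 3.65 and 6.76 CPM by library. Of 51 keratin rows, 7 were detected, and of 22 claudins, 5, with CLDN15 at 160.4, 70.8 and 104 CPM.

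Further genes picked after their values were seen include LRRN4CL at 1213, 773 and 866 CPM, BNC2 at 434, 442 and 452 CPM, UPK1B at 241, 405 and 320.4 CPM and ALDH1A2, an enzyme of retinoic acid synthesis, at 451, 526 and 555 CPM. DPPA3 itself had 0, 2 and 1 counts in these untreated cells. Of the deposited rows, 26 carried a date or serial number in place of a symbol, and 18 of them were detected, so the genes behind those rows are not named here.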
